A study of Homo sapiens with 30 samples.

Results

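The 33 genes described here encode enzymes of cholesterol and fatty acid synthesis, the proteins that control them through sterol-regulated transcription, and a pair of genes that respond to excess sterol. They were taken as a named list from a table of 30373 genes, and all 33 were found in it. Of them, 7 act in the mevalonate part of the pathway (ACAT2, HMGCS1, MVK, PMVK, MVD, IDI1 and FDPS). A further 10 act from squalene to cholesterol (FDFT1, SQLE, LSS, CYP51A1, TM7SF2, MSMO1, NSDHL, HSD17B7, EBP and DHCR7). The sterol-sensing and transport group has 6 genes (SREBF1, SREBF2, SCAP, INSIG1, INSIG2 and STARD4), and 8 act in fatty acid synthesis (ACLY, ACSS2, ACACA, FASN, SCD, ELOVL6, FADS1 and FADS2). The remaining 2, MYLIP and ABCA1, are targets of the liver X receptors (LXR).

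Cells make cholesterol from acetyl-CoA through mevalonate, squalene and lanosterol, and make fatty acids from the same acetyl-CoA. The genes of both routes are switched on by the sterol regulatory element binding proteins (SREBPs, from SREBF1 and SREBF2). When sterols are scarce, SCAP escorts SREBPs out of the endoplasmic reticulum to be cut and released, and when sterols are plentiful, INSIG1 and INSIG2 hold SCAP back. LXR, which binds oxidised sterols, drives genes that include ABCA1 and MYLIP. ABCA1 exports cholesterol from the cell, and MYLIP encodes a ubiquitin ligase that removes lipoprotein receptors.

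Messenger RNA was sequenced from human cancer lines treated with ML-792 (ML00754792), an inhibitor of the enzyme that activates the protein modifier SUMO, or with its DMSO vehicle, in 30 libraries that form 10 groups of 3. For 16 h, MDAMB231 (a breast cancer line), COLO205 and HCT116 (colorectal cancer lines) each received 500 nM ML-792 or 0.01% DMSO. For 3.5 h, HCT116 cells received ML-792 with heat shock, DMSO with heat shock, ML-792 without heat shock or DMSO without heat shock. The heat shocked cells had 2 h of drug or vehicle, 0.5 h at 43 °C and 1 h at 37 °C. All 30 libraries come from established lines with no genetic change given in the labels. MDAMB231 alone stands for breast cancer, while COLO205 and HCT116 both stand for colorectal cancer. The labels call the replicates biological triplicates, so p-values measure the spread between such cultures.

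The values were taken as FPKM, a unit that divides fragments by transcript length and by library size, although the deposited table's header names no unit. On that reading, levels of different genes can be compared per length within a library. Tests were made with limma on log2(FPKM + 1), so that every log2 change below is on that scale and understates the change of genes near or below 1 FPKM. A gene was called at an adjusted p under 0.05 (Benjamini-Hochberg over all genes tested). In bulk RNA, less RNA per cell and fewer expressing cells cannot be told apart. A rough estimate from step sizes among low values put the 16 h libraries at 28.2 to 35.5 M fragments. The lines matched their labels in part: in DMSO, VIM was at 885 FPKM in MDAMB231, at 0.0049 in COLO205 and at 4.03 in HCT116, and VIL1 was at 114 FPKM in COLO205, 0.0188 in HCT116 and 0 in MDAMB231. CDX2 was at 5.87 FPKM in HCT116 and 0.275 in COLO205, and KRT20 was under 1 FPKM in all lines. Of the luminal breast markers, ESR1, PGR and FOXA1 were near 0 in MDAMB231, but GATA3 was at 3.08 FPKM in DMSO. Of the other mesenchymal markers, ZEB1 (10.4 FPKM) and FN1 (54.9) were highest in MDAMB231 in DMSO at 16 h. SPARC was at 0.191 FPKM there and 0.573 in HCT116, and CAV1 at 378 and 106. The leukocyte genes PTPRC and CD3E and the fibroblast gene DCN were at or near 0 throughout, but other markers of those cells were not. In DMSO at 16 h, CD68 was at 158 FPKM in COLO205, 55.9 in MDAMB231 and 4.53 in HCT116. COL1A1 was at 5.97 FPKM in HCT116 and COL1A2 at 3.43 in MDAMB231. With DMSO and heat shock at 3.5 h, COL1A1 was at 14.6 FPKM in HCT116.

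At 16 h, most genes called with ML-792 were higher in MDAMB231 and COLO205, and most were lower in HCT116. In MDAMB231, 16 of 33 were called higher and 1 lower, against 8.38% of all genes called higher and 8.48% called lower. In COLO205, 16 were called higher and 5 lower, against 19.4% and 17.7% of all genes. In HCT116, 2 were called higher and 9 lower, against 8.32% and 6.42%. The median log2 change of the 33 genes was 0.16 in MDAMB231, 0.12 in COLO205 and -0.09 in HCT116, while the median of the 14251 genes tested was 0.00 in each line. Both LXR targets, MYLIP and ABCA1, were the 2 genes called higher in all 3 lines. A further 7 were called higher in MDAMB231 and COLO205 and not called in HCT116: HMGCS1, IDI1, SQLE, CYP51A1, MSMO1, INSIG1 and FADS1. These counts include ABCA1 in HCT116 (0.535 FPKM with ML-792 and 0.311 in DMSO) and FADS1 in COLO205 (0.415 and 0.110). There, both passed the filter on low values only through other lines, and both calls were lost at a pseudocount of 5. MVK, PMVK, NSDHL, HSD17B7, EBP and FADS2 were called in no line at 16 h.

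**Figure D1:**
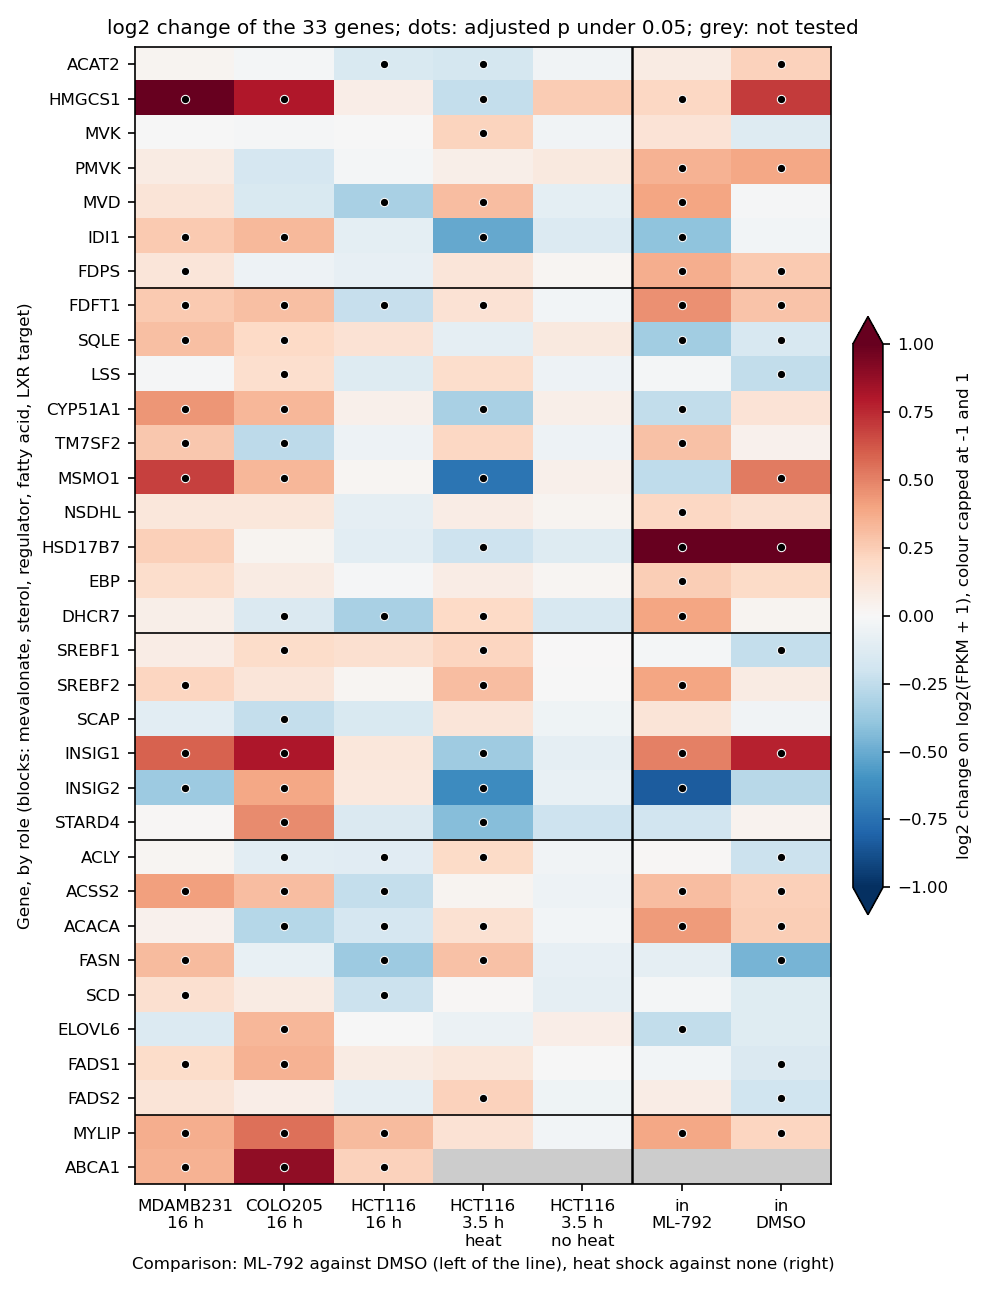
Heat map of the log2 change, on log2(FPKM + 1), of the 33 genes (rows, in blocks by role) in 5 comparisons of ML-792 with DMSO and 2 of heat shock with none (columns), each from 3 libraries a group. Red is higher and blue lower in ML-792 or heat shock, the colour is capped at 1 and -1, black dots mark adjusted p under 0.05 and grey cells were not tested. HMGCS1, SQLE, CYP51A1, MSMO1 and INSIG1 are red in MDAMB231 and COLO205 at 16 h, TM7SF2 and DHCR7 are blue in COLO205, the 3.5 h column without heat shock has no dot, and HSD17B7 is dark red in both heat shock columns.

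The 5 promoters shown first below belong to the genes with the largest called changes in at least 2 comparisons of ML-792 with DMSO, and the EBP promoter belongs to a well expressed gene of the same pathway that was called in none of them. Each runs from 250 bases before to 50 after a transcription start listed by RefSeq on GRCh38.p14, and is written 5′ to 3′ on the gene's own strand. HMGCS1 is at chr5:43313363-43313662 (minus strand, 1 of 2 listed starts), ABCA1 at chr9:104928106-104928405 (minus), INSIG1 at chr7:155297628-155297927 (plus), MSMO1 at chr4:165327419-165327718 (plus), INSIG2 at chr2:118088221-118088520 (plus, 1 of 2 listed starts) and EBP at chrX:48521558-48521857 (plus). Capitals mark a CCAAT box (CCAAT, or ATTGG on the other strand), an E-box (CACGTG) or an LXR element of the DR4 type, on either strand.
HMGCS1: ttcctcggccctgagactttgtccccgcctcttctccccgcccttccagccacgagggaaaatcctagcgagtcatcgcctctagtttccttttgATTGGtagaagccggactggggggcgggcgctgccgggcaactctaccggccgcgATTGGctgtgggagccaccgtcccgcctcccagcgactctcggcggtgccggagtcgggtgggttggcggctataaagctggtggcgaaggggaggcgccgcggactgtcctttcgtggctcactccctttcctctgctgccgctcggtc
ABCA1: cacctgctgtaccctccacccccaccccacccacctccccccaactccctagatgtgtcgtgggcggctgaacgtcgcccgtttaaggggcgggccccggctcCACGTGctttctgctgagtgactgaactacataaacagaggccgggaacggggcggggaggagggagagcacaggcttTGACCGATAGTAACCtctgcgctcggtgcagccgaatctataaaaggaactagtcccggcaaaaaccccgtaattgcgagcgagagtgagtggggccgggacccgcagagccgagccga
INSIG1: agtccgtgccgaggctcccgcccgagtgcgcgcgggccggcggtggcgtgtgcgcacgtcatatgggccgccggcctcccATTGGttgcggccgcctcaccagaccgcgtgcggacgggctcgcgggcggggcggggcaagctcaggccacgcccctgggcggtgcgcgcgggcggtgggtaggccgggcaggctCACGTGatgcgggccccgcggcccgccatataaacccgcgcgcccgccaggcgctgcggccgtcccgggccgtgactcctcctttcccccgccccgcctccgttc
MSMO1: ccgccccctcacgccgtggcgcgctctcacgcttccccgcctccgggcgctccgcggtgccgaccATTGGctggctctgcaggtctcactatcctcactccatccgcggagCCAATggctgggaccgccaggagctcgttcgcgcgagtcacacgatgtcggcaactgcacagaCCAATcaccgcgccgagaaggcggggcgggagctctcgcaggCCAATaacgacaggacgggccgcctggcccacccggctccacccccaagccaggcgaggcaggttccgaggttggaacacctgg
INSIG2: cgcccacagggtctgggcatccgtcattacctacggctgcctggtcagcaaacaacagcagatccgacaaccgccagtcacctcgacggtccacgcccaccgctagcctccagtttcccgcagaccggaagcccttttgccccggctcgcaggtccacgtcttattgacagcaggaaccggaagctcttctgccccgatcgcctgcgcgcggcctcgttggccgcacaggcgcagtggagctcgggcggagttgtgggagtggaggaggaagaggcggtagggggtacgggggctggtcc
EBP: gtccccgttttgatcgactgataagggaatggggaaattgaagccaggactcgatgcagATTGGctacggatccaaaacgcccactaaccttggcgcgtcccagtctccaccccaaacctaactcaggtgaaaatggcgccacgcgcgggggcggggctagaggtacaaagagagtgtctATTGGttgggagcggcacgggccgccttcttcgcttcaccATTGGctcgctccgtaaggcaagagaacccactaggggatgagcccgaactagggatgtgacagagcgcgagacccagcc

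MSMO1 holds 4 CCAAT boxes in this window, EBP 3, HMGCS1 2 and INSIG1 1, while INSIG2 holds none of the motifs searched. CCAAT, which the factor NF-Y binds beside SREBPs, was found on either strand in 21 of the 29 members with a listed promoter (72.4%), against 39.7% of 27305 genes. The E-box CACGTG, which SREBPs can also bind, was found in 4 of 29 (13.8%; ABCA1, INSIG1, LSS and SCAP), against 8.77% of genes. The SREBP site TCACNCCAC was found in 1 of 29 (3.45%; SREBF2), against 1.39%. The DR4 element, searched after the other 3 motifs, was found in ABCA1, where it begins 69 bases before the start, and at the other listed start of HMGCS1, so in 2 of 29 (6.9%) against 0.78% of genes. None of these motifs overlapped another in the sequences shown. A match describes the letters only, and binding was not measured. EBP, with its 3 CCAAT boxes, had 86.3, 78.4 and 76.4 FPKM with ML-792 against 72.2, 69.4 and 71.7 in DMSO in MDAMB231 (log2 change 0.17 ± 0.06 SE, adjusted p = 0.0514), and missed the threshold.

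In MDAMB231, some genes of the mevalonate and sterol routes were called higher with ML-792. ACAT2, MVK, PMVK, MVD, LSS, NSDHL, HSD17B7, EBP and DHCR7 were not called in this line. HMGCS1, the synthase that commits acetyl-CoA units to this route, had 38.2, 45.3 and 45.6 FPKM with ML-792, against 17.2, 15.6 and 15.4 in DMSO. The groups were far apart, and on log2(FPKM + 1) this was the largest change of any of the 33 genes at 16 h (log2 change 1.37 ± 0.15, adjusted p = 8.08e-06). By the ratio of mean FPKM (2.68) it was below ABCA1 (4.99) and FADS1 (3.76) in COLO205. MSMO1, which oxidises the methyl groups of sterol intermediates, had 72.3, 82.6 and 81.6 FPKM with ML-792, against 51.5, 47.1 and 47.4 in DMSO (0.68 ± 0.06, adjusted p = 7.19e-07). CYP51A1, the lanosterol demethylase, had 51.5, 54.8 and 56.6 FPKM with ML-792, against 42.0, 37.8 and 39.5 in DMSO (0.44 ± 0.06, adjusted p = 3.48e-05). Of the 7 mevalonate genes 3 were called higher, of the 10 sterol genes 5, and none of these 17 was called lower. Of all genes 8.38% were called higher and 8.48% lower. The others called were IDI1, the isopentenyl diphosphate isomerase (0.26 ± 0.06), FDPS, the farnesyl diphosphate synthase (0.12 ± 0.03), FDFT1, the squalene synthase (0.27 ± 0.05), SQLE, the squalene epoxidase (0.30 ± 0.05), and TM7SF2, a sterol reductase (0.27 ± 0.08). The TM7SF2 call was lost without ML-792 library 1 (adjusted p = 0.0838), ML-792 library 2 (0.0623), DMSO library 2 (0.0625) or DMSO library 3 (0.0795).

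The control genes of MDAMB231 split. INSIG1 had 94.0, 106.0 and 103.6 FPKM with ML-792, against 68.4, 66.1 and 65.9 in DMSO (0.59 ± 0.06, adjusted p = 3.12e-06). INSIG2, its relative, had 11.7, 13.0 and 12.9 FPKM with ML-792, against 17.3, 16.2 and 15.6 in DMSO, and was the single member called lower in this line (fell by 0.36 ± 0.07, adjusted p = 0.00146). SREBF2, which encodes the SREBP most tied to sterol synthesis, rose (36.5 ± 2.4 against 31.4 ± 1.1 FPKM, SD, n = 3 each, log2 change 0.21 ± 0.05), and SREBF1, SCAP and STARD4 were not called. In fatty acid synthesis 4 of 8 genes were called higher and none lower, against 8.38% and 8.48% of all genes. ACSS2, which makes acetyl-CoA from acetate, had 25.6, 27.2 and 27.9 FPKM with ML-792, against 20.4, 18.8 and 20.7 in DMSO (0.41 ± 0.05, adjusted p = 4.23e-06). FASN, the fatty acid synthase, changed by 0.31 ± 0.09, the desaturase SCD by 0.16 ± 0.04 and the desaturase FADS1 by 0.19 ± 0.04. The FASN call was lost without ML-792 library 1 (adjusted p = 0.0889) or 2 (0.0611) or DMSO library 1 (0.0972) or 2 (0.0563), and the SCD call without ML-792 library 2 (0.0734) or 3 (0.0780) or DMSO library 2 (0.0728). The FADS1 call was lost at a pseudocount of 0.1 (adjusted p = 0.0926).

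The LXR targets of MDAMB231 also rose. MYLIP had 9.45, 9.17 and 9.46 FPKM with ML-792, against 7.21, 6.99 and 7.03 in DMSO (0.36 ± 0.05, adjusted p = 7.58e-05). ABCA1 had 8.90, 10.2 and 10.7 FPKM with ML-792, against 7.75, 7.50 and 7.38 in DMSO (0.35 ± 0.06, adjusted p = 0.000187). Neither gene's groups overlapped. Across the list 21 of 33 genes had groups that did not overlap in MDAMB231, against 34.3% of all genes.

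In COLO205 the largest log2 changes were those of ABCA1, INSIG1 and HMGCS1. Of the 6 regulator genes 4 were called higher and 1 lower, against 19.4% and 17.7% of all genes. INSIG1 had 50.4, 56.5 and 62.2 FPKM with ML-792, against 30.9, 31.4 and 32.5 in DMSO (0.81 ± 0.06, adjusted p = 2.56e-08). INSIG2, lower with ML-792 in MDAMB231, was higher here at 9.24, 10.2 and 10.5 FPKM with ML-792, against 7.69, 7.57 and 6.90 in DMSO (0.39 ± 0.07, adjusted p = 0.000351). STARD4, which carries cholesterol between membranes, had 23.9, 25.8 and 27.7 FPKM with ML-792, against 17.9, 18.5 and 18.5 in DMSO (0.47 ± 0.07, adjusted p = 8.46e-05). SREBF1 rose by 0.19 ± 0.06 and SCAP fell by 0.24 ± 0.07. The SREBF1 call was lost without ML-792 library 3 (adjusted p = 0.110) or DMSO library 1 (0.102), and the SCAP call without DMSO library 1 (0.0505) or 3 (0.0504).

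ABCA1 was low in this line, and its change was the largest on this scale. It had 1.31, 1.31 and 1.46 FPKM with ML-792, against 0.270, 0.314 and 0.233 in DMSO (0.89 ± 0.06, adjusted p = 1.24e-09), which is a ratio of mean FPKM of 4.99. MYLIP had 8.23, 8.89 and 9.49 FPKM with ML-792, against 5.85, 5.65 and 5.64 in DMSO (0.55 ± 0.05, adjusted p = 2.5e-07). Both genes were well separated between the groups. FADS1, a desaturase of polyunsaturated fatty acids, had 0.399, 0.469 and 0.376 FPKM with ML-792, against 0.092, 0.135 and 0.103 in DMSO (0.35 ± 0.04, adjusted p = 6.29e-06). It passed the filter on low values through the other lines, and its call was lost at a pseudocount of 5 (adjusted p = 0.0540).

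Among the enzymes of COLO205, HMGCS1 had 65.2, 45.2 and 36.1 FPKM with ML-792, against 27.9, 26.2 and 26.1 in DMSO (0.80 ± 0.15, adjusted p = 0.000524). All ML-792 libraries were above all DMSO libraries, but they spread over 14.9 FPKM (SD, n = 3), more than in any other group for this gene. IDI1 (0.32 ± 0.06), FDFT1 (0.30 ± 0.05), SQLE (0.20 ± 0.05), LSS, the lanosterol synthase (0.17 ± 0.06), CYP51A1 (0.33 ± 0.06), MSMO1 (0.33 ± 0.06) and ACSS2 (0.31 ± 0.05) rose as well. The elongase ELOVL6 had 22.9, 23.9 and 25.5 FPKM with ML-792, against 19.0, 19.0 and 18.6 in DMSO (0.33 ± 0.05, adjusted p = 7.93e-05). The genes that fell were ACACA, the acetyl-CoA carboxylase (by 0.29 ± 0.04), TM7SF2 (by 0.26 ± 0.08), DHCR7, the reductase of the last step to cholesterol (by 0.14 ± 0.05), and ACLY, the citrate lyase (by 0.11 ± 0.04). LSS, DHCR7 and ACLY were close to the threshold, and the groups of DHCR7 and ACLY overlapped. The LSS call was lost without any of ML-792 library 2 or 3 or DMSO library 1, 2 or 3 (adjusted p of 0.0542 to 0.193). The DHCR7 call was lost without ML-792 library 1 or 2 or DMSO library 2 or 3 (0.104 to 0.194), the ACLY call without the same 4 libraries (0.0815 to 0.155), and the TM7SF2 call without ML-792 library 3 (0.0736) or DMSO library 2 (0.0793). In all, 22 of 33 genes had groups that did not overlap, against 49.0% of all genes.

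In HCT116 the sterol and fatty acid genes that were called had lower levels with ML-792. FASN had 149.0, 130.0 and 121.3 FPKM with ML-792, against 154.8, 176.4 and 183.0 in DMSO (fell by 0.36 ± 0.09, adjusted p = 0.0124). MVD, the mevalonate diphosphate decarboxylase, had 29.9, 27.8 and 26.9 FPKM with ML-792, against 33.03, 35.05 and 38.9 in DMSO (fell by 0.33 ± 0.07, adjusted p = 0.00462). DHCR7 had 27.8, 27.3 and 25.1 FPKM with ML-792, against 33.4, 33.5 and 33.9 in DMSO (fell by 0.32 ± 0.05, adjusted p = 0.000556). The groups of these genes did not overlap, although the FASN call was lost without ML-792 library 2 (adjusted p = 0.0509) or 3 (0.0753) or DMSO library 3 (0.0665). ACSS2 had 10.6, 10.7 and 10.3 FPKM with ML-792, against 12.2, 13.0 and 12.6 in DMSO (fell by 0.24 ± 0.05, adjusted p = 0.00145). FDFT1 had 47.6, 52.4 and 53.3 FPKM with ML-792, against 59.6, 61.1 and 59.6 in DMSO (fell by 0.23 ± 0.05, adjusted p = 0.00781). SCD, the most abundant of these transcripts per length, had 226.8, 230.2 and 229.8 FPKM with ML-792, against 267.1, 269.3 and 261.5 in DMSO (fell by 0.22 ± 0.04, adjusted p = 0.00223). ACACA fell by 0.17 ± 0.04, ACAT2, the thiolase at the head of the pathway, by 0.15 ± 0.05, and ACLY by 0.12 ± 0.04. The ACAT2 call was lost without ML-792 library 1 or 2 or any DMSO library (adjusted p of 0.0610 to 0.117), and the ACLY call without ML-792 library 2 or 3 or any DMSO library (0.0602 to 0.144).

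None of the 6 regulator genes was called in HCT116, against 14.7% of all genes, which is close to the background for so few genes. For SREBF1 limma gave an adjusted p of 0.0728 (64.6 ± 4.8 FPKM with ML-792 and 57.5 ± 2.2 in DMSO, SD, n = 3 each). HMGCS1, called higher in both other lines, had 11.8, 13.5 and 12.9 FPKM with ML-792, against 13.3, 11.8 and 11.2 in DMSO, and the groups overlapped. The LXR targets MYLIP and ABCA1 ran the other way to the synthesis genes that were called. MYLIP had 3.57, 3.97 and 3.79 FPKM with ML-792, against 3.04, 2.84 and 2.65 in DMSO (0.31 ± 0.05, adjusted p = 0.000462). ABCA1 had 0.560, 0.522 and 0.522 FPKM with ML-792, against 0.336, 0.305 and 0.293 in DMSO (0.23 ± 0.06, adjusted p = 0.00951). ABCA1 passed the filter on low values through the other lines, and its call was lost at a pseudocount of 5 (adjusted p = 0.233). The groups of 18 of 33 genes did not overlap in HCT116, against 28.5% of all genes.

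**Figure D2:**
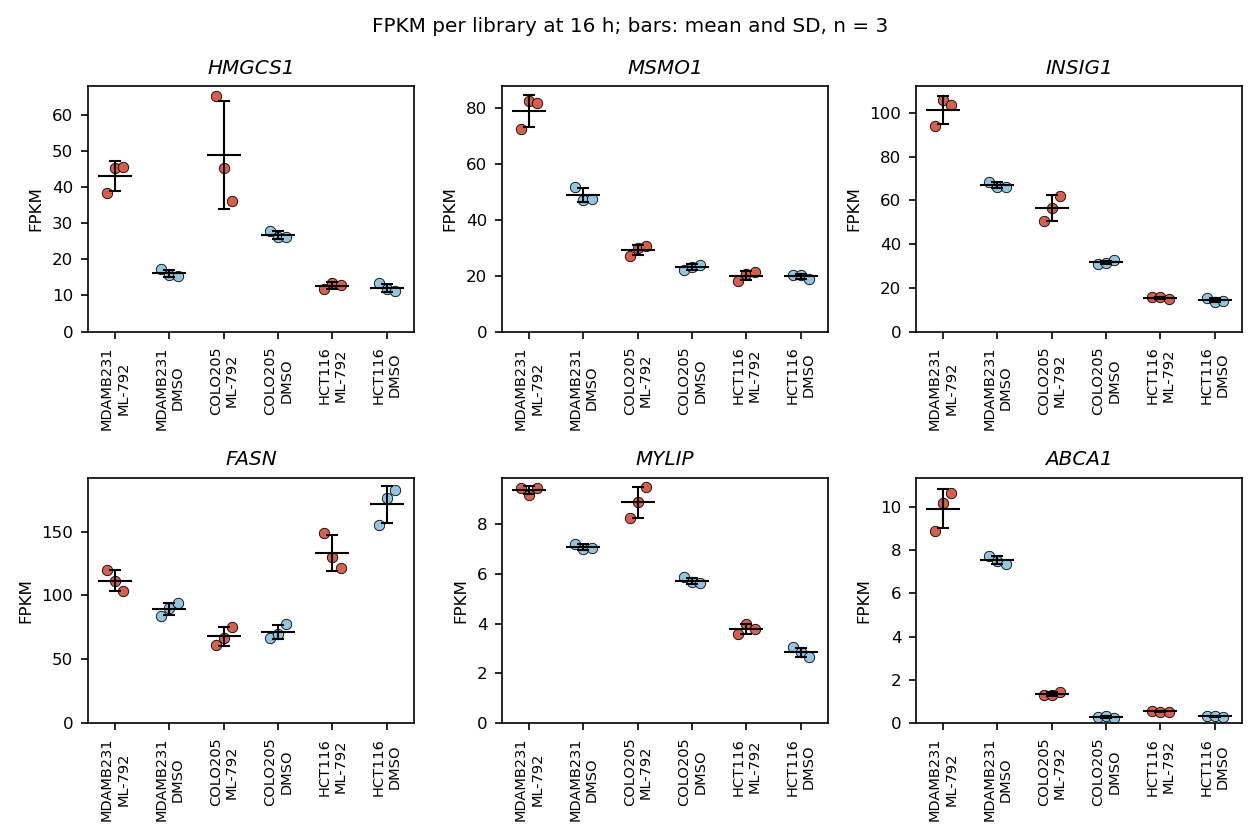
FPKM (y axis, from 0) of HMGCS1, MSMO1, INSIG1, FASN, MYLIP and ABCA1 in each 16 h library, with ML-792 (red) left of DMSO (blue) for MDAMB231, COLO205 and HCT116. Bars are the mean and SD of 3 libraries. HMGCS1, MSMO1 and INSIG1 separate by treatment in MDAMB231 and COLO205, FASN is higher with ML-792 in MDAMB231 and lower in HCT116, and MYLIP is higher with ML-792 in all 3 lines.

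The differences between lines were tested as differences of the ML-792 effects. Against HCT116, the effect in MDAMB231 was larger (more positive) for 14 genes and smaller for 1, against 4.93% and 5.84% of all genes. HMGCS1 differed by 1.30 ± 0.21, FASN by 0.67 ± 0.13, MSMO1 by 0.67 ± 0.09, ACSS2 by 0.65 ± 0.06 and FDFT1 by 0.50 ± 0.08, with INSIG1 at 0.48 ± 0.09. The others were MVD (0.45 ± 0.10), CYP51A1 (0.39 ± 0.08), DHCR7 (0.38 ± 0.08), SCD (0.37 ± 0.06), IDI1 (0.36 ± 0.09), ACACA (0.22 ± 0.06), FADS2 (0.22 ± 0.07) and FDPS (0.21 ± 0.05), and INSIG2 ran the other way (-0.46 ± 0.10). The ACACA difference was lost without any 1 of 5 libraries (adjusted p of 0.0572 to 0.0710) and the FADS2 difference without any 1 of 9 (0.0504 to 0.122), at a pseudocount of 0.1 (0.228) or with a GC content and length trend removed (0.194). FDFT1, ACSS2, SCD and FASN were each called higher with ML-792 in MDAMB231 and lower in HCT116, and the difference was called for all 4. Against HCT116, the effect in COLO205 was larger for 14 genes and smaller for none, against 9.66% and 9.75% of all genes. INSIG1 differed by 0.70 ± 0.09, ABCA1 by 0.66 ± 0.08, STARD4 by 0.62 ± 0.10, ACSS2 by 0.55 ± 0.06 and FDFT1 by 0.53 ± 0.08. IDI1 (0.41 ± 0.09), ELOVL6 (0.34 ± 0.07), MSMO1 (0.32 ± 0.09), LSS (0.30 ± 0.09), SCD (0.30 ± 0.06), CYP51A1 (0.28 ± 0.08), FADS1 (0.27 ± 0.06) and MYLIP (0.24 ± 0.07) were called too. FADS1, at under 0.5 FPKM in COLO205, lost this call at a pseudocount of 5 (0.0143, adjusted p = 0.886), and MYLIP at 0.1 (adjusted p = 0.0902). Leaving out 1 library ended the calls of CYP51A1 (5 libraries, adjusted p of 0.0513 to 0.0618), LSS (4 libraries, 0.0657 to 0.0745), MSMO1 (5 libraries, 0.0502 to 0.0582) and MYLIP (7 libraries, 0.0511 to 0.0709). The HMGCS1 difference between COLO205 and HCT116 (0.73 ± 0.21, adjusted p = 0.0213) was lost without HCT116 DMSO library 1 (adjusted p = 0.0525) and when those groups were fitted alone (0.0635). These contrasts share the 6 HCT116 libraries.

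MDAMB231 and COLO205 differed from each other in fewer genes: 5 had a more positive effect in MDAMB231 and 4 in COLO205, so 9 of 33 were called against 26.0% of all genes, a share close to the background. INSIG2 stood out, with the ML-792 effect lower in MDAMB231 by 0.75 ± 0.10 (adjusted p = 3.37e-05), since it fell in one line and rose in the other. TM7SF2 was the other gene called in opposite directions (0.53 ± 0.11, adjusted p = 0.0019). ABCA1 (-0.54 ± 0.08), ELOVL6 (-0.47 ± 0.07) and STARD4 (-0.46 ± 0.10) had the larger effect in COLO205. The ABCA1 difference was lost at a pseudocount of 5 (-0.0217, adjusted p = 0.775). The effect was larger in MDAMB231 for MSMO1 (0.35 ± 0.09), ACACA (0.33 ± 0.06), FASN (0.39 ± 0.13) and FDPS (0.17 ± 0.05), and the FDPS difference was lost with a GC content and length trend removed (0.0736, adjusted p = 0.22). The FASN difference was lost without any 1 of 8 of the 12 libraries (adjusted p of 0.0505 to 0.0900) or with no filter (0.0575). HMGCS1 differed by 0.56 ± 0.21, which did not pass (adjusted p = 0.0585).

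The lines also set these genes at different levels in DMSO, where most genes of any kind differed. Of the 33 genes, 23 were called higher and 8 lower in MDAMB231 than in HCT116, against 83.6% of all genes called (38.1% higher and 45.5% lower). Between MDAMB231 and COLO205 the counts were 19 higher and 11 lower, against 86.4% called (41.9% and 44.5%), and between COLO205 and HCT116 they were 21 higher and 10 lower, against 84.9% called (39.4% and 45.5%). The groups did not overlap for 31 genes in each pair, against 85.3%, 89.2% and 86.5% of all genes in the same order. MDAMB231 had the highest mean of 18 genes, COLO205 of 11 and HCT116 of 4 (MVD, TM7SF2, FASN and ACACA). HCT116, the line with mostly lower values under ML-792, had the lowest mean of 18 genes.

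The widest spread was in the desaturases of polyunsaturated fatty acids. FADS2 was at 86.7 ± 3.2 FPKM in MDAMB231, 0.178 ± 0.021 in COLO205 and 5.09 ± 0.22 in HCT116 (SD, n = 3 each). FADS1, its neighbour on the chromosome, was at 49.2 ± 1.3 FPKM in MDAMB231, 0.110 ± 0.022 in COLO205 and 23.5 ± 0.3 in HCT116. Both are thus near 0 in COLO205 alone, and since the 2 genes overlap in GENCODE, reads between them could be shared. ABCA1 was at 7.54 ± 0.19 FPKM in MDAMB231 and at 0.272 ± 0.041 and 0.311 ± 0.022 in COLO205 and HCT116, whose libraries overlapped. INSIG1 was at 66.8 ± 1.4 FPKM in MDAMB231, 31.6 ± 0.8 in COLO205 and 14.2 ± 0.9 in HCT116, and LSS at 59.3 ± 1.9, 16.7 ± 0.8 and 16.3 ± 0.9 in the same order. COLO205 was highest for SCD (365 ± 5 FPKM, against 266 ± 4 in HCT116 and 189 ± 4 in MDAMB231), for PMVK, the phosphomevalonate kinase (50.0 ± 1.0, against 18.9 ± 0.6 in MDAMB231 and 14.8 ± 1.6 in HCT116), and for SREBF1 (107.9 ± 6.1, against 57.5 ± 2.2 in HCT116 and 46.5 ± 1.6 in MDAMB231). Neighbours in this order that overlapped were MDAMB231 and COLO205 for IDI1 and NSDHL, MDAMB231 and HCT116 for FDFT1 and HSD17B7, and COLO205 and HCT116 for LSS and ABCA1.

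**Figure D3:**
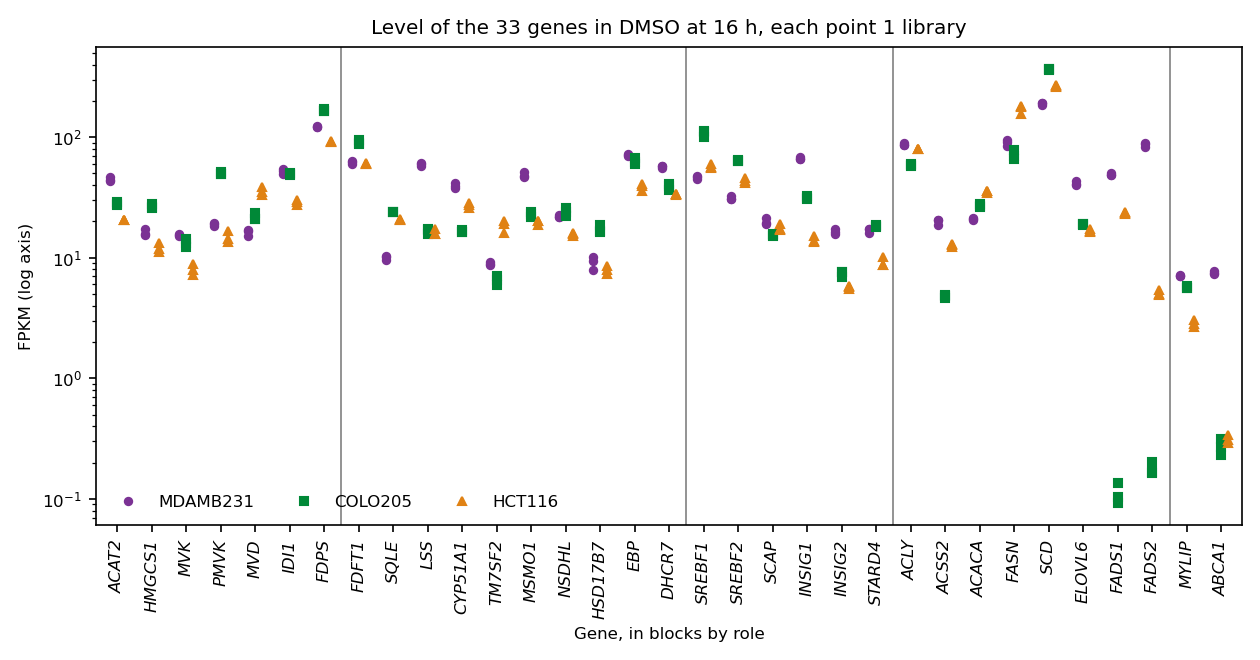
FPKM (log axis) of the 33 genes in DMSO at 16 h, with MDAMB231 as circles, COLO205 as squares and HCT116 as triangles, each point 1 library and the genes in blocks by role. FADS1 and FADS2 sit at 0.202 FPKM or below in COLO205, FADS2 is above 80 FPKM in MDAMB231, and ABCA1 is above 7 FPKM in MDAMB231 alone.

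After 3.5 h without heat shock no gene of the list was called in HCT116, 0 of 32 tested, against 1.21% of all genes. ABCA1, the gene not tested, was at 0.0562 ± 0.0128 FPKM with ML-792 and 0.0549 ± 0.0021 in DMSO. The limma test gave 3 genes an unadjusted p under 0.05. HMGCS1 had 43.1, 46.8 and 44.1 FPKM with ML-792, against 37.0, 37.6 and 37.4 in DMSO (0.25 ± 0.06, adjusted p = 0.0695). DHCR7 had 35.7, 36.8 and 38.8 FPKM with ML-792, against 42.0, 42.8 and 40.2 in DMSO (-0.16 ± 0.06, adjusted p = 0.362), and HSD17B7 had 7.10 ± 0.22 with ML-792 and 7.86 ± 0.11 in DMSO (adjusted p = 0.668). The groups of each of these 3 genes did not overlap, as for 13 of 32 genes, against 27.6% of all genes. A fit of these 6 libraries alone called 3 genes, 1 higher and 2 lower.

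Between the times, the ML-792 effect in HCT116 differed for 1 gene, against 2.4% of all genes. MYLIP was 0.35 ± 0.08 higher at 16 h (adjusted p = 0.0308), a call that was lost when any 1 of 9 of the 12 libraries was left out (adjusted p of 0.0566 to 0.0989). The vehicle levels of the experiments were not alike: HMGCS1 was at 12.1 ± 1.1 FPKM in DMSO at 16 h and 37.3 ± 0.3 at 3.5 h, and TM7SF2 at 18.4 ± 2.2 and 4.55 ± 0.01. Time and experiment cannot be told apart in such a pair.

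With heat shock, genes of the mevalonate and sterol routes were called in both directions with ML-792. Of 32 genes 10 were called higher and 9 lower, against 18.4% and 15.1% of all genes, and the median of the 32 was 0.09 against 0.06 for all genes. MSMO1 had 19.2, 22.3 and 29.4 FPKM with ML-792 and heat, against 38.2, 40.5 and 39.1 with DMSO and heat (fell by 0.73 ± 0.11, adjusted p = 0.00153). INSIG2 had 2.77, 2.26 and 3.99 FPKM with ML-792 and heat, against 5.05, 4.91 and 5.34 with DMSO and heat (fell by 0.63 ± 0.12, adjusted p = 0.00355). IDI1 had 29.6, 31.5 and 36.8 FPKM with ML-792 and heat, against 44.3, 49.3 and 46.8 with DMSO and heat (fell by 0.51 ± 0.07, adjusted p = 0.00126). In all of these, ML-792 library 3 was nearest to DMSO, and no groups overlapped. STARD4 had 7.69, 5.26 and 9.32 FPKM with ML-792 and heat, against 11.5, 10.7 and 8.30 with DMSO and heat, which overlapped (fell by 0.43 ± 0.15, adjusted p = 0.0429). INSIG1 had 21.7, 23.1 and 26.1 FPKM with ML-792 and heat, against 30.1, 31.1 and 29.8 with DMSO and heat (fell by 0.35 ± 0.07, adjusted p = 0.00387). CYP51A1 had 34.2, 34.4 and 40.5 FPKM with ML-792 and heat, against 45.2, 47.1 and 45.0 with DMSO and heat (fell by 0.33 ± 0.06, adjusted p = 0.00464). HMGCS1 fell by 0.24 ± 0.06, HSD17B7 by 0.20 ± 0.06 and ACAT2 by 0.18 ± 0.06.

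SREBF2 had 48.5, 55.3 and 51.8 FPKM with ML-792 and heat, against 43.6, 40.9 and 40.3 with DMSO and heat (0.31 ± 0.06, adjusted p = 0.00341). MVD had 30.2, 39.6 and 33.2 FPKM with ML-792 and heat, against 27.1, 24.99 and 30.4 with DMSO and heat (0.31 ± 0.09, adjusted p = 0.0213), where ML-792 library 1 lay just below DMSO library 3. The others called higher were FASN (0.30 ± 0.07), FADS2 (0.23 ± 0.06), MVK, the mevalonate kinase (0.22 ± 0.06), SREBF1 (0.22 ± 0.06), DHCR7 (0.20 ± 0.06), ACLY (0.19 ± 0.05), ACACA (0.15 ± 0.05) and FDFT1 (0.14 ± 0.05). The summed FPKM of the heat shocked libraries, 608121 to 732251, was above that of the others at 3.5 h (552951 to 575982). The calls were repeated with library totals made equal and with median-of-ratios factors. The totals made equal leave out genes of the mitochondrial genome, and were 548016 to 660910 with heat and 488339 to 508744 without. With both of these scalings, 8 of the 9 falls stayed called (all but STARD4) and 3 of the 10 rises did (MVD, SREBF2 and FASN). With a GC content and length trend removed, 9 of the 19 calls were lost: HMGCS1 (-0.0361), HSD17B7 (-0.0401), STARD4 (-0.0955), MVK (0.0895), DHCR7 (0.0796), SREBF1 (0.0341), FASN (0.056), ACACA (0.1003) and FADS2 (0.0799), at adjusted p of 0.116 to 0.732. The count of 19 dropped to 8 without DMSO heat shock library 2, to 10 without ML-792 heat shock library 2 and to 2 (IDI1 and MSMO1, both lower) when the 6 libraries were fitted alone. Leaving out 1 library ended the call of 11 of the 19 genes, with adjusted p of 0.0557 for HMGCS1 (DMSO library 2), 0.0630 to 0.0660 for HSD17B7, 0.0699 to 0.0982 for MVD, 0.0585 to 0.0866 for DHCR7 and 0.0509 to 0.0704 for FADS2 (ML-792 library 2 or DMSO library 2). The same held for MVK (0.05002 to 0.0926; ML-792 1, DMSO 1 or 2), FDFT1 (0.0827 to 0.157; ML-792 1 or 2, DMSO 2), ACACA (0.0572 to 0.110) and ACAT2 (0.0634 to 0.0927; both ML-792 1 or 2, DMSO 2 or 3), SREBF1 (0.0505 to 0.0785; ML-792 2 or 3, DMSO 2 or 3) and STARD4 (0.0572 to 0.152; ML-792 1 or 2, DMSO 1 or 2).

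Between the heat shocked and the other libraries at 3.5 h, one gene of the list changed far more than the others. The library codes of these sets form separate number blocks. Heat shock therefore cannot be told apart from any other difference between the blocks. HSD17B7, a sterol ketoreductase, had 22.7, 20.1 and 23.6 FPKM with ML-792 and heat, against 7.32, 6.88 and 7.10 with ML-792 alone (1.51 ± 0.06, adjusted p = 5.32e-10). It had 25, 25.5 and 26.3 FPKM with DMSO and heat, against 7.74, 7.91 and 7.93 with DMSO alone (1.59 ± 0.06, adjusted p = 3.42e-10). The mean FPKM with heat was 3.12 times that without in ML-792 and 3.26 times in DMSO. Its near copy HSD17B7P2 moved with it, at 7.74 ± 1.06 and 1.38 ± 0.11 FPKM with ML-792, with and without heat, and at 9.74 ± 0.68 and 1.59 ± 0.23 FPKM with DMSO. Reads shared between these 2 genes could be split either way by the counting, so the value of HSD17B7 is uncertain.

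In DMSO, heat shock was followed by 11 genes called higher and 7 lower of 32, against 49.5% of all genes called (28.9% higher and 20.6% lower). The share of the 32 genes called was 56.2%, near the background. INSIG1 had 30.1, 31.1 and 29.8 FPKM with heat, against 17.4, 18.4 and 16.5 without (0.77 ± 0.07, adjusted p = 1.125e-06). HMGCS1 had 62.5, 63.8 and 57.9 FPKM with heat, against 37.0, 37.6 and 37.4 without (0.70 ± 0.06, adjusted p = 8.64e-07). MSMO1 had 38.2, 40.5 and 39.1 FPKM with heat, against 27.4, 27.2 and 26.4 without (0.52 ± 0.11, adjusted p = 0.00161). PMVK (0.39 ± 0.09), FDFT1 (0.28 ± 0.05), FDPS (0.26 ± 0.07), ACACA (0.25 ± 0.05), ACSS2 (0.24 ± 0.06), ACAT2 (0.23 ± 0.06) and MYLIP (0.21 ± 0.06) were higher too. FASN fell by 0.47 ± 0.07, LSS by 0.25 ± 0.07, SREBF1 by 0.24 ± 0.06, ACLY by 0.22 ± 0.05, FADS2 by 0.20 ± 0.06, SQLE by 0.16 ± 0.05 and FADS1 by 0.14 ± 0.05. Calls were lost for FADS1 without heat library 3 (adjusted p = 0.1001) or DMSO library 1 (0.0682) or 3 (0.130) of no heat, and for FADS2 without heat library 2 (0.0674) or no-heat library 2 (0.0509) or 3 (0.0542). The MYLIP call was lost without no-heat library 1 (0.0621) and the SQLE call without no-heat library 2 (0.0762). ACAT2 overlaps TCP1, a chaperonin gene on the other strand, which was at 733 ± 38 FPKM with heat and 356 ± 11 without. How strand was used in counting is not given in the sources used here, and the part of TCP1 in the ACAT2 value was not tested.

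With ML-792, heat shock was followed by 15 genes called higher and 5 lower, against 61.7% of all genes called (39.3% higher and 22.3% lower). The share of the 32 genes called was 62.5%, close to the background. INSIG2 had 2.77, 2.26 and 3.99 FPKM with heat, against 6.22, 5.67 and 6.23 without (fell by 0.83 ± 0.12, adjusted p = 6.01e-05). INSIG1 had 21.7, 23.1 and 26.1 FPKM with heat, against 15.8, 16.9 and 16.2 without (0.51 ± 0.07, adjusted p = 3.83e-05). FDFT1 had 104.4, 107.2 and 99.2 FPKM with heat, against 73.7, 77.3 and 75.1 without (0.45 ± 0.05, adjusted p = 8.81e-06). ACACA (0.42 ± 0.05), SREBF2 (0.40 ± 0.06), MVD (0.40 ± 0.09), DHCR7 (0.39 ± 0.06), MYLIP (0.39 ± 0.06), FDPS (0.37 ± 0.07), PMVK (0.35 ± 0.09), ACSS2 (0.31 ± 0.06), TM7SF2 (0.30 ± 0.08), EBP (0.25 ± 0.08), HMGCS1 (0.21 ± 0.06) and NSDHL (0.21 ± 0.07) were higher, while IDI1 fell by 0.40 ± 0.07, SQLE by 0.35 ± 0.05, ELOVL6 by 0.25 ± 0.07 and CYP51A1 by 0.25 ± 0.06. The EBP call was lost without heat library 2 (adjusted p = 0.0835) or no-heat library 1 (0.0631) or 3 (0.0552), and the NSDHL call without heat library 2 (0.0787) or no-heat library 2 (0.0510) or 3 (0.0735). These contrasts share the heat shocked libraries with the comparison of ML-792 and DMSO.

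Under both other scalings 6 of the 20 calls of heat shock with ML-792 and 10 of the 18 in DMSO held, against 17 of 17 in MDAMB231, 20 of 21 in COLO205 and 11 of 11 in HCT116 at 16 h. The median log2 change of all genes with heat was 0.10 with ML-792 and 0.05 in DMSO on the deposited scale, and -0.18 with ML-792 and -0.19 in DMSO when totals were made equal. HSD17B7 alone was called higher in both backgrounds under every scaling, and HMGCS1 and INSIG1 were also called higher under every scaling in DMSO. On equal totals HMGCS1, NSDHL and EBP turned to lower values with ML-792, and FDPS, ACAT2, ACACA and ACSS2 in DMSO, none of them called. The falls of FASN, ACLY, SQLE, LSS, SREBF1, FADS1 and FADS2 in DMSO, and of INSIG2, IDI1, SQLE, ELOVL6 and CYP51A1 with ML-792, were called under all 3 scalings, but with a GC content and length trend removed the calls of LSS (adjusted p = 0.0632), SREBF1 (0.0996) and FADS2 (0.0883) in DMSO and of CYP51A1 (0.429) and ELOVL6 (0.761) with ML-792 were lost. Of the rises with ML-792, PMVK, TM7SF2, NSDHL and EBP lost their call there too (0.0612 to 0.206). Transcripts of the mitochondrial genome took 9.05% to 10.1% of summed FPKM with heat and 11.5% to 12% without, and their part in the result was not tested.

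**Figure D4:**
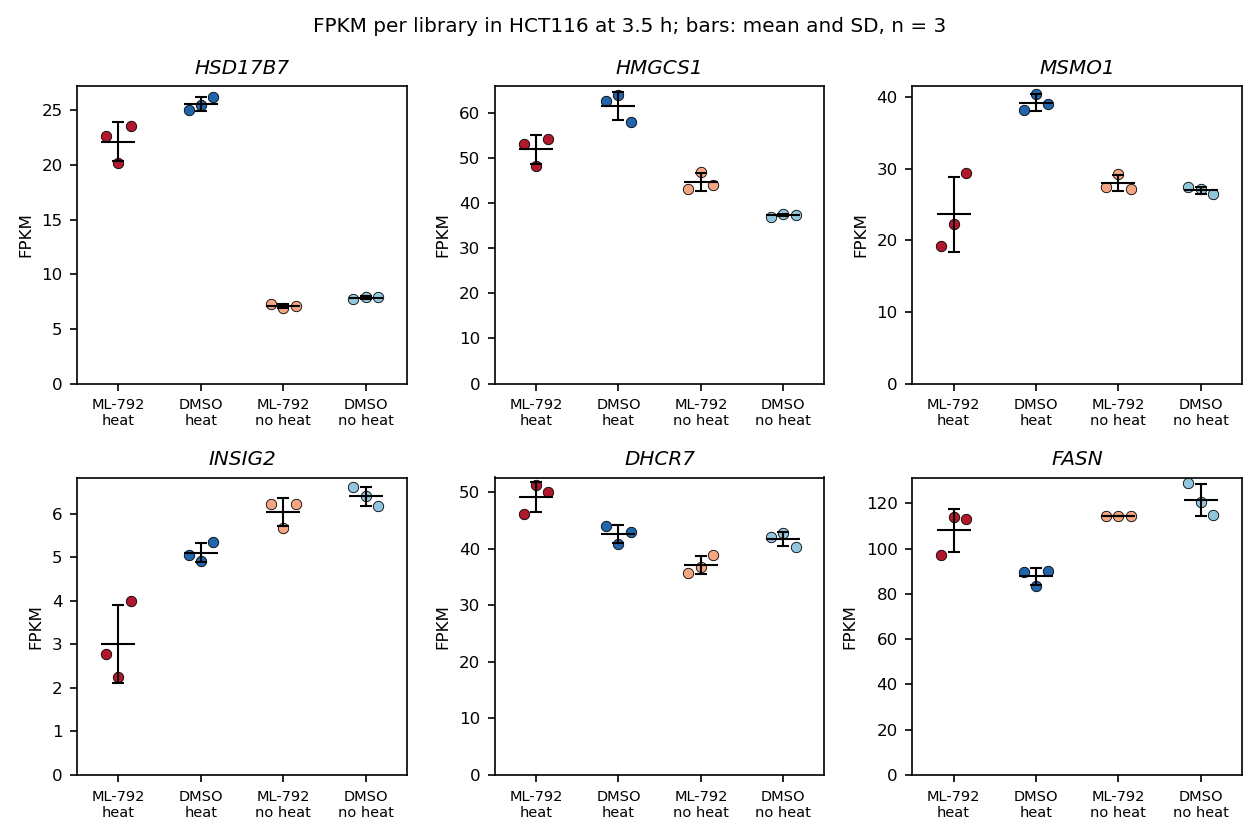
FPKM (y axis, from 0) of HSD17B7, HMGCS1, MSMO1, INSIG2, DHCR7 and FASN in each HCT116 library at 3.5 h, from left to right ML-792 with heat shock, DMSO with heat shock, ML-792 without and DMSO without. Bars are the mean and SD of 3 libraries. HSD17B7 lies above 20 FPKM in every heat shocked library and below 8 in the others, and MSMO1 is at 38.2 FPKM or more with heat in DMSO but at 29.4 or less with ML-792, a heat shock rise in DMSO that was not called under every scaling.

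The effect of ML-792 differed with heat shock for 7 genes, 3 more positive and 4 more negative, against 6.41% of all genes called (2.48% and 3.93%). MSMO1 differed by -0.78 ± 0.15 (adjusted p = 0.0229), HMGCS1 by -0.49 ± 0.08 (0.012), CYP51A1 by -0.39 ± 0.09 (0.0335) and IDI1 by -0.38 ± 0.10 (0.0491). FASN differed by 0.38 ± 0.10 (0.04125), DHCR7 by 0.365 ± 0.08 (0.0279) and SREBF2 by 0.31 ± 0.08 (0.0413). With heat, HMGCS1 was at 51.8 ± 3.2 FPKM with ML-792 and 61.4 ± 3.1 in DMSO, and without heat at 44.6 ± 1.9 with ML-792 and 37.3 ± 0.3 in DMSO (SD, n = 3 each). Leaving out 1 library ended the call of MSMO1 (7 libraries, adjusted p of 0.0544 to 0.0716), CYP51A1 (8, 0.0517 to 0.0974), IDI1 (9, 0.0622 to 0.132), FASN (8, 0.0663 to 0.116), DHCR7 (7, 0.0573 to 0.0864) and SREBF2 (8, 0.0585 to 0.113). The other 6 also lost the call with no filter (adjusted p of 0.0513 to 0.0929) and with a GC content and length trend removed (0.0761 to 0.321). HMGCS1 was the single gene of the 7 called under every alternative. The count was 14 without ML-792 heat shock library 3, and 3 without ML-792 heat shock library 2. It was 1 without DMSO heat shock library 2 or without any 1 library that had no heat shock.

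Genes of the same pathways outside the list were counted in the same way. At 16 h, 8.38% of all genes were called higher and 8.48% lower in MDAMB231, 19.4% and 17.7% in COLO205, and 8.32% and 6.42% in HCT116. Against these shares, which no test compared with the lists, the counts were as follows. Of 25 other fatty acid and lipid synthesis genes tested at 16 h, ML-792 was followed by 4 higher and 2 lower in MDAMB231, 8 and 4 in COLO205, and 2 and 3 in HCT116. MLXIPL, which encodes the glucose-responsive factor ChREBP, rose to 10.1 FPKM with ML-792 against 2.42 in DMSO in MDAMB231 (1.71 ± 0.06, adjusted p = 1.22e-12) and fell to 22.3 against 37.1 FPKM in COLO205 (by 0.71 ± 0.06, adjusted p = 3.83e-08). ACSL1, an acyl-CoA synthetase, rose to 23.6 against 15.4 FPKM in MDAMB231 (0.58 ± 0.06) and to 56.9 against 21.6 in COLO205 (1.36 ± 0.06), and ACSL5, a relative, fell by 0.27 ± 0.04 in MDAMB231 and by 0.37 ± 0.04 in HCT116. Of 19 other sterol and isoprenoid genes, 3 were higher and 3 lower in MDAMB231, 5 and 3 in COLO205, and 2 and 0 in HCT116. CYB5B, which encodes a cytochrome b5 form, was called in COLO205 (0.46 ± 0.04) and HCT116 (0.26 ± 0.04).

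Of 9 genes of SREBP processing and sterol sensing, 1 was higher and 1 lower in MDAMB231, 1 and 4 in COLO205, and none was called in HCT116. MBTPS1, the protease that makes the first cut in SREBPs, rose in MDAMB231 (0.12 ± 0.04, adjusted p = 0.0481) and COLO205 (0.26 ± 0.04, adjusted p = 6.44e-05). Of 9 LXR genes besides MYLIP and ABCA1, 1 was higher in MDAMB231, 4 higher and 4 lower in COLO205 and 1 higher in HCT116. PLTP, a phospholipid transfer protein and LXR target, rose in MDAMB231 (0.26 ± 0.08, limma adjusted p = 0.0407), COLO205 (0.56 ± 0.08, 4.41e-05) and HCT116 (0.29 ± 0.08, 0.0254). In COLO205 PLTP was low, at 0.761 FPKM with ML-792 and 0.202 in DMSO. Calls of genes outside the list were not repeated under other settings. NR1H3, which encodes LXR alpha, fell by 0.55 ± 0.07 in COLO205. Of 15 genes of sterol uptake, transport and storage, 1 was higher in MDAMB231, 4 higher and 2 lower in COLO205, and 1 lower in HCT116. At 3.5 h without heat shock none of these 5 lists had a called gene. With heat shock, RNF139, a ubiquitin ligase of the endoplasmic reticulum that senses sterols, was at 8.08 FPKM with ML-792 against 17.4 in DMSO (fell by 1.04 ± 0.14, adjusted p = 0.000768).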

How the data were processed

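The authors deposited one table of 30373 genes in 30 libraries, read here as FPKM: its header names no unit, and its unequal column sums do not contradict FPKM. The labels' protocols describe stranded mRNA libraries and 50-base reads, and DESeq2 1.10.1 stands in the submitters' processing notes with no role. The aligner, counting, build and gene models behind the values are not given in the sources. The commonest step size among low values, over 1414 single-transcript genes, put a 16 h library at roughly 28.2 to 35.5 M fragments, while at 3.5 h the steps were ambiguous (8.91 to 74.1 M). Since few low values shared a step, depth is approximate and no counts were recovered.

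Values were tested as log2(FPKM + 1) with limma 3.58.1 in R 4.3.3 (trend and robust), on genes that reached 1 FPKM in 3 or more libraries, with Benjamini-Hochberg adjustment over all genes and a threshold of 0.05. One fit held the 18 libraries of 16 h (14251 genes), one the 12 of 3.5 h (12191 genes) and one the 12 HCT116 libraries without heat shock at both times (12462 genes). Samples were grouped by the labels. The lowest correlation between replicates was 0.9959, and no replicate pair was identical. The procedure was tested on simulated data. Alternatives changed the pseudocount, the filter, the scaling, a GC and length trend, the variance model and the libraries fitted, and left out each library in turn.

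The 33 genes and the other lists were chosen with earlier results of these data known. Every called member is named, with each library's values for up to 8 in a comparison of ML-792 with DMSO, 4 in one of heat shock, and 6 of the differences. A few others were named after their values were seen: EBP, HMGCS1 and SREBF1 where not called, and the DR4 search. Of the 33 genes 23 overlap another annotated gene, 11 of them one in the table, and 5 have a named pseudogene, so their FPKM can include shared reads. Other times and treatments in the protocol were not analysed here.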

Additional observations from a re-analysis of the deposited data

Results flagged for a closer look

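The 25 gene results here are the largest called differences in the effect of ML-792, at most 6 in each contrast. The contrasts are between lines, between heat shock and none, and between times, tested in limma with Benjamini-Hochberg adjustment over all genes. For MDAMB231 minus HCT116, 15 of 33 genes were called, against 10.8% of all genes. For COLO205 minus HCT116 it was 14 against 19.4%, and for MDAMB231 minus COLO205 9 against 26.0%. For heat it was 7 of 32 against 6.41%, and for time 1 of 32 against 2.4%. Each value is a difference of log2 changes. In MDAMB231 minus HCT116 these were HMGCS1 (1.30, adjusted p = 0.000717), FASN (0.67, 0.00222), MSMO1 (0.67, 0.00011), ACSS2 (0.65, 2.68e-06), FDFT1 (0.50, 0.000329) and INSIG1 (0.48, 0.00181). In COLO205 minus HCT116 they were HMGCS1 (0.73, 0.0213), INSIG1 (0.70, 2.6e-05), ABCA1 (0.66, 1.015e-05), STARD4 (0.62, 0.000472), ACSS2 (0.55, 9.21e-06) and FDFT1 (0.53, 0.000102). Here the HMGCS1 difference was lost when 1 library was left out (0.0525).

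In MDAMB231 minus COLO205 the differences were INSIG2 (-0.75, 3.37e-05), ABCA1 (-0.54, 7.39e-05), TM7SF2 (0.53, 0.0019), ELOVL6 (-0.47, 0.00017), STARD4 (-0.46, 0.00367) and FASN (0.39, 0.0337). Of these, the ABCA1 difference was lost at a pseudocount of 5 (-0.0217, 0.775), and the FASN difference without any 1 of 8 libraries (0.0505 to 0.0900). With heat shock minus without, in HCT116, they were MSMO1 (-0.78, 0.0229), HMGCS1 (-0.49, 0.012), CYP51A1 (-0.39, 0.0335), FASN (0.38, 0.04125), IDI1 (-0.38, 0.0491) and DHCR7 (0.365, 0.0279). Of these heat differences only that of HMGCS1 was called under every alternative, and leaving out 1 library could end each of the others. At 16 h minus 3.5 h MYLIP differed by 0.35 (0.0308), which was lost without any 1 of 9 libraries (0.0566 to 0.0989).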

How the results depend on the processing

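No paired analysis was possible because replicates carry no number in the labels that could link groups. Of 135 counts of called genes recomputed with 9 other settings, 122 stayed within 1.5 times and 13 did not. Removing a GC content and length trend gave 14 calls for MDAMB231 minus COLO205, 1 for the effect of heat on that of ML-792, 11 for ML-792 with heat, 1 for ML-792 without heat at 3.5 h and 6 for 16 h minus 3.5 h. Without a filter the effect of heat on that of ML-792 had 1 call and 16 h minus 3.5 h had 2, and with a filter at 5 FPKM the second had 0. Equal totals gave 11 calls for ML-792 with heat, 2 for the effect of heat on it and 0 for 16 h minus 3.5 h. Fitting the compared groups alone gave 2 calls for ML-792 with heat and 3 without. The cause was not tested.

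Leaving out 1 library gave 14 to 18 calls in MDAMB231, 17 to 20 in COLO205, 8 to 11 in HCT116 at 16 h, 0 to 0 at 3.5 h without heat and 8 to 19 with heat. It gave 18 to 23 for heat with ML-792, 16 to 20 for heat in DMSO, 13 to 15 for MDAMB231 minus HCT116, 10 to 15 for COLO205 minus HCT116, 8 to 13 for MDAMB231 minus COLO205, 1 to 14 for the effect of heat on that of ML-792 and 0 to 3 for 16 h minus 3.5 h. For DMSO levels it gave 29 to 31 (MDAMB231 against HCT116), 28 to 31 (MDAMB231 against COLO205) and 30 to 31 (COLO205 against HCT116).

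Of 3931 gene values, 3598 kept direction and call, 324 lost the call and 9 reversed. On equal totals HMGCS1 (-0.11), NSDHL (-0.11) and EBP (-0.0763) reversed for heat with ML-792, and FDPS (-0.0077), ACAT2 (-0.0387), ACACA (-0.0166) and ACSS2 (-0.0109) for heat in DMSO. With the GC and length trend removed, DMSO levels reversed for FASN between MDAMB231 and COLO205 (-0.0218) and SCAP between COLO205 and HCT116 (0.16). The median of the genes for heat was -0.17 with ML-792 and -0.20 in DMSO on equal totals, and -0.01 and -0.04 with median-of-ratios factors.

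The split of all called genes also moved with scaling. For heat with ML-792 it was 4796 higher and 2721 lower as deposited, 2991 and 4016 with median-of-ratios factors, and 1560 and 5867 on equal totals. For heat in DMSO it was 3526 and 2507, 2576 and 3357, and 1317 and 5710 in the same order, and for ML-792 with heat 2241 and 1842, 1165 and 2493, and 1042 and 1884. For ML-792 in HCT116 at 16 h it was 1186 and 915, 942 and 1156, and 825 and 1277, and for COLO205 minus HCT116 1376 and 1389 as deposited and 1544 and 1007 on equal totals. For the effect of heat on that of ML-792 it was 302 and 479, 195 and 839, and 34 and 192. Low genes (ABCA1 in COLO205 and HCT116, FADS1 and FADS2 in COLO205) rest on few fragments.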

Other observations

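The summed FPKM of the genes gives the routes as a whole, with no test. The 10 genes from squalene to cholesterol summed to 465 FPKM with ML-792 and 388 in DMSO in MDAMB231, to 360 and 321 in COLO205, and to 241 and 258 in HCT116. The 8 fatty acid genes summed to 649 FPKM with ML-792 and 584 in DMSO in MDAMB231, to 563 and 546 in COLO205, and to 524 and 611 in HCT116. In COLO205 these sums overlapped (529.8 to 601.0 FPKM with ML-792 and 533.5 to 557.2 in DMSO), unlike the other sums given here. SCD alone was at 388 FPKM in COLO205 with ML-792. The 7 mevalonate genes summed to 338 FPKM with ML-792 and 286 in DMSO in MDAMB231, to 377 and 357 in COLO205, and to 196 and 212 in HCT116.

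Among the other lipid genes, ELOVL5, an elongase of polyunsaturated fatty acids, was at 130.6 FPKM with heat shock and 46.1 without in DMSO (log2 change 1.48 ± 0.07, limma adjusted p = 4.33e-09).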
